A study of Mus musculus with 10 samples.

Results

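The autophagy machinery was read out from bulk RNA-seq of cultured mouse lung fibroblasts labelled Mrc2 knockout or wild type. A set of 40 genes was taken by gene symbol from the 54532 genes of the deposited count table. It runs from the kinases that start autophagy to the transcription factors that control its genes. The rule used gene symbols rather than measured values, though the genes were chosen with earlier results of these data known. All 40 were expressed above the low-count filter and were tested, among 14360 tested genes. None passed an adjusted p of 0.05 by edgeR in Mrc2 knockout cells. The genes of the Atg8 family, above all Map1lc3b (0.742-fold), and those of its conjugation enzymes had lower means in the knockout. With an offset for gene length Map1lc3a, Atg3 and Atg4c turned above 0. Genes of the earlier steps had means on both sides of the wild type. Lower values were not particular to the Atg8 and conjugation genes, whose median log2 fold changes (knockout over wild type) were -0.36 and -0.19. The 3 transcription factors had a median of -0.20 and the 5 cargo receptors one of -0.19, with 2 of these 5 above 0. A separate list of 26 lysosomal genes had a median of -0.37.

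Mrc2 encodes a receptor that takes up collagen for breakdown in lysosomes, and the study's title concerns faster proliferation of lung fibroblasts that lack it. The series holds 5 libraries of Mrc2 knockout fibroblasts and 5 of wild-type (WT) fibroblasts. All were primary lung cells at baseline, grown in DMEM with 10% fetal bovine serum and antibiotics, with no treatment named for either genotype. Per the labels, poly(A)-selected RNA was read on an Illumina NovaSeq. The labels and design text used here give no mouse strain, age, sex or passage, and do not describe the Mrc2 allele. The titles call the libraries biological replicates without naming separate animals or cultures, so that the p-values measure the spread between these samples. All carry the same batch label, but the library names fall into separate number runs for knockout and WT, and knockout library 5 has a number apart from the other 4. A difference between naming runs and a difference between genotypes cannot be told apart.

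Total counts per library were 19879808 to 29944615 in the knockout and 19603933 to 29362649 in WT, and 3 counts corresponded to 0.0971 to 0.161 CPM (read counts scaled to a common library size). Mrc2 itself had 206, 264, 282, 229 and 231 CPM in the 5 knockout libraries, against 1027, 952, 874, 795 and 568 CPM in the 5 WT libraries. The groups did not overlap and the libraries labelled knockout were the low ones. The log2 fold change (knockout over WT) was -1.80 (SE 0.17, edgeR adjusted p = 0.00293), or 0.287-fold, so that Mrc2 RNA was reduced but not absent. Fibroblast markers such as Col1a1 and Vim were abundant in every library, with the 10 markers summing to 26159 to 50977 CPM in the knockout and 19438 to 31888 CPM in WT. Of the 10, 7 had higher means in the knockout (median log2 fold change 0.36), and 4 were higher at an unadjusted p under 0.05 (40%, against 7.19% of all tested genes), though edgeR called 0. The 12 leukocyte markers summed to 3034 to 6625 CPM in the knockout and 2519 to 12165 CPM in WT (exact two-sided permutation p = 0.302), so every culture also held leukocyte RNA. The 9 epithelial markers, of which Cldn18 was at 0 in every library, summed to 6.06 to 18.9 CPM in the knockout and 6.31 to 58.5 CPM in WT. All 5 mesothelial markers had lower means in the knockout (median log2 fold change -0.71), 1 of them at an unadjusted p under 0.05 (20%, against 6.1% of all tested genes), and they summed to 61.0 to 208 CPM in the knockout and 82.6 to 429 CPM in WT. Among 5 tested smooth muscle and pericyte markers 3 were above 0, 1 of them at an unadjusted p under 0.05 (20%, against 7.19% of all tested genes on the higher side). Among 4 tested endothelial markers 2 were below 0, 1 of them at that level (25%, against 6.1% on the lower side). The part of these cell types in the differences reported here was not tested, apart from a fit with a leukocyte covariate.

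Autophagy encloses cytoplasm in a double membrane, the autophagosome, and delivers it to the lysosome for breakdown. The Ulk1 kinase complex and the Becn1 lipid kinase complex start the membrane, Atg9a vesicles and Atg2 lipid transfer proteins enlarge it, and a ubiquitin-like conjugation system attaches the Atg8 proteins (the Lc3 and Gabarap families) to its lipids, where cargo receptors such as Sqstm1 dock. Tfeb, Tfe3 and Mitf are related transcription factors that switch on autophagy and lysosome genes when they enter the nucleus, and in fibroblasts the lysosome is also where endocytosed collagen is degraded.

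Across the 40 genes, 28 (70%) had a log2 fold change below 0 and 12 (30%) above, with a median of -0.12, or 0.918-fold. Over all tested genes 51.6% were below 0 and 48.4% above, and the median was -0.01. By the quasi-likelihood test of edgeR 0 of the 40 were called at an adjusted p under 0.05, where 2 of 14360 genes (0.0139%) were called in all and the lowest adjusted p of the 40 was 0.231. At an unadjusted p under 0.05 there were 8 (20%), against 13.3% of all tested genes. Of these, 7 were lower in the knockout (17.5%, against 6.1% of all tested genes) and 1 was higher (2.5%, against 7.19%). The CPM ranges of knockout and WT did not overlap for 2 of the 40 (5%, against 2.05% of all tested genes). These were Map1lc3b and Atg12, both lower in the knockout, as were 1.09% of all tested genes, and 0 were higher without overlap, as were 0.961% of all tested genes. The 95% interval of the log2 fold change lay within 0.5 of 0 for 17 of the 40 and within 1 of 0 for 39, Atg9a being the exception with an upper bound of 1.11. In bulk RNA, fewer cells of a type and less RNA per cell cannot be told apart.

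**Figure D1:**
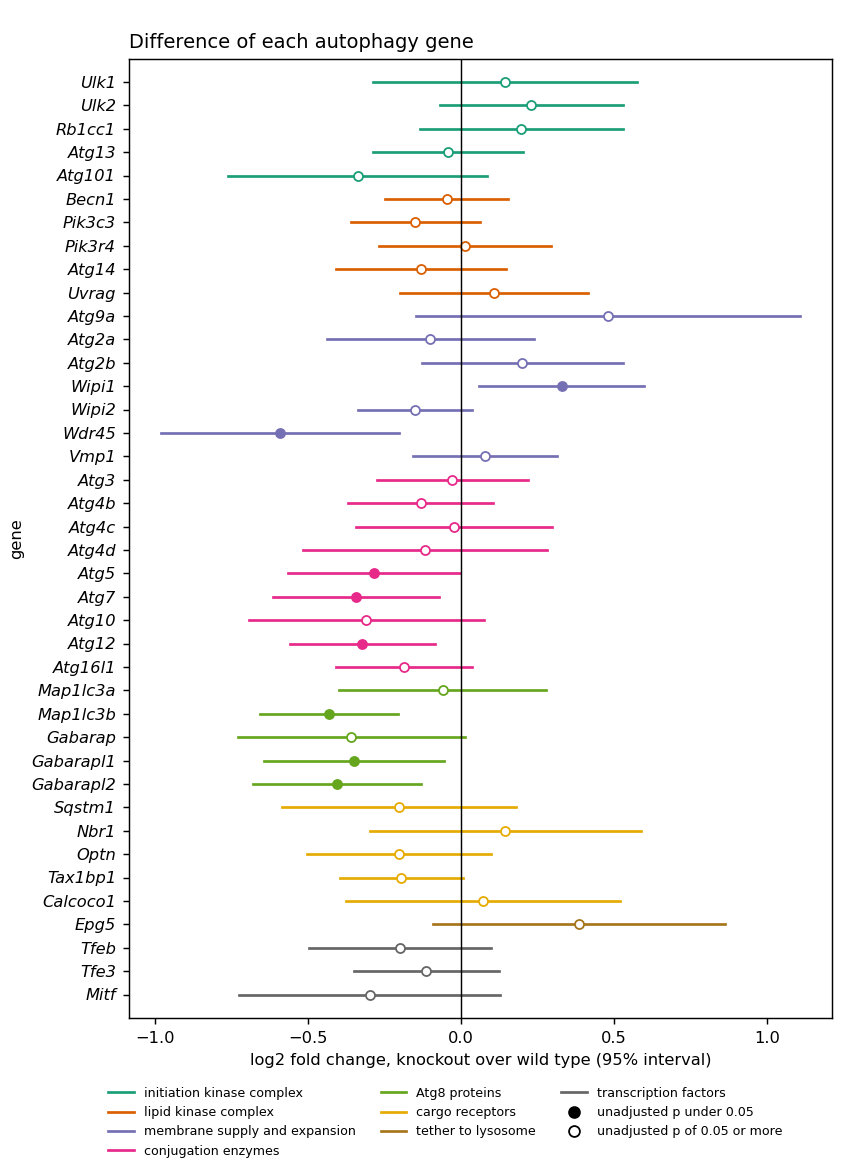
Log2 fold change (knockout over WT) of each of the 40 autophagy genes with its 95% interval, grouped by role, from the edgeR fit over all tested genes. All 9 conjugation genes and all 5 Atg8 genes lie below 0 (with a gene-length offset Atg3, Atg4c and Map1lc3a lie above it, at 0.04, 0.04 and 0.08), and genes of the earlier steps lie on both sides (with the offset Rb1cc1, Uvrag, Pik3r4 and Atg2b turn below 0).

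**Figure D2:**
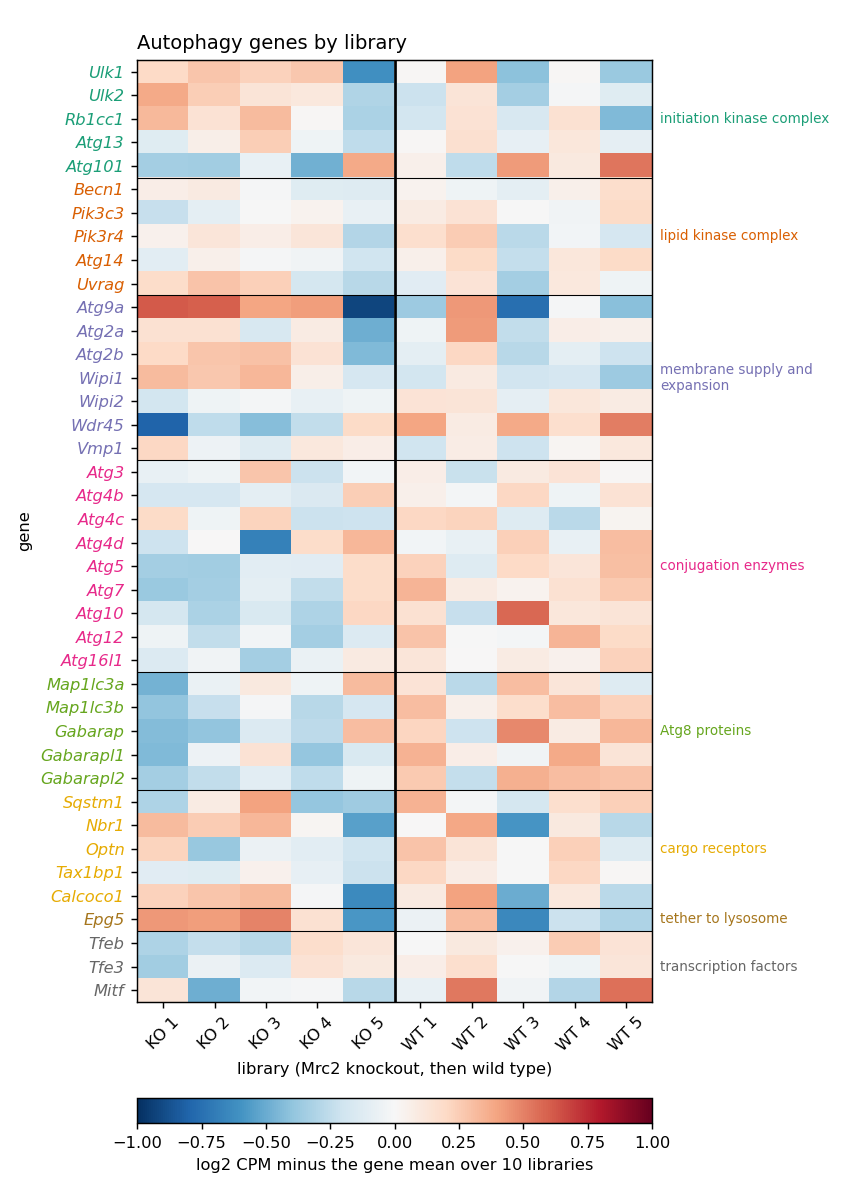
Log2 CPM of each autophagy gene in each of the 10 libraries, centred on the gene's mean over all libraries, with knockout libraries left of WT libraries and genes grouped by role. Knockout library 5 and WT library 3 have low values for many of the longer genes, among them Epg5 with a value of -0.58 in knockout library 5 and -0.65 in WT library 3.

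All 5 Atg8 genes had a log2 fold change below 0, which turned to 0.08 for Map1lc3a with an offset for gene length, and Map1lc3b had the smallest p of the 40. Of all tested genes 51.6% were below 0. The median log2 fold change of the 5 was -0.36. At an unadjusted p under 0.05 there were 3 of them, all lower (60%, against 6.1% of all tested genes on the lower side). Map1lc3b encodes Lc3b, whose lipid-bound form marks autophagosomes. It lies at chr8:121590361-121598760 on the plus strand of mm10. It had 170.4, 191, 223, 185 and 199 CPM in the knockout libraries, against 278, 232, 253, 278 and 263 CPM in the WT libraries. Every knockout library was below every WT library. The log2 fold change was -0.43 (SE 0.10, 95% interval -0.66 to -0.20, edgeR adjusted p = 0.231). DESeq2 called it at an adjusted p of 0.0209 with a log2 fold change of -0.42, the only one of the 40 it called (1.32% of the genes it adjusted were called in all). Over the 21 alternative settings tried, the adjusted p of Map1lc3b ran from 0.0209 to 0.593 and its log2 fold change from -0.61 to -0.39. Map1lc3b shares 58 bases with Zcchc14 on the opposite strand, a gene at 64.5 CPM, and because no source used here says whether counting was by strand, reads in that stretch could belong to either gene.

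Gabarapl2, which encodes an Atg8 protein of the Gabarap branch also known as Gate-16, lies at chr8:111940703-111953612. It had 34.8, 37.2, 40.9, 36.9 and 42.8 CPM in the knockout libraries, against 52.9, 37.3, 56.4, 54.6 and 53.8 CPM in the WT libraries. The groups overlapped only through WT library 2, whose value lay below those of knockout libraries 3 and 5. Its log2 fold change was -0.40 (SE 0.12, edgeR adjusted p = 0.285). Gabarapl1, a close relative of Gabarap, had 104, 136, 156, 108 and 128 CPM in the knockout libraries, against 181, 149, 138, 185 and 155 CPM in the WT libraries. The groups overlapped, with a log2 fold change of -0.35, an SE of 0.13 and an adjusted p of 0.343 by edgeR.

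Gabarap, the namesake of the branch and the most abundant Atg8 gene per kilobase, had 248.5, 255, 305, 280.1 and 415 CPM in the knockout libraries, against 389, 291, 468, 356 and 423 CPM in the WT libraries. Knockout library 5 lay among the WT libraries and WT library 2 among the knockout libraries (log2 fold change -0.36, SE 0.17, edgeR adjusted p = 0.387). Map1lc3a, which encodes the related Lc3a, had 64.4, 85.8, 96.0, 86.8 and 112 CPM in the knockout libraries, against 98.6, 74.3, 111, 97.3 and 82.2 CPM in the WT libraries. These values interleaved, with a log2 fold change of -0.06 and a 95% interval of -0.40 to 0.28. Per kilobase of deposited gene length Gabarap had the highest mean level and Gabarapl2 the lowest in both groups. For Map1lc3b that length covers most of the gene's span on the chromosome, so its level per kilobase is less certain. Gabarap had 163 CPM per kb in the knockout and 209 CPM per kb in WT. Map1lc3a followed with 75.3 and Gabarapl1 with 62.9 CPM per kb in the knockout, while in WT Gabarapl1 had 80.2 and Map1lc3a 78.5 CPM per kb. Map1lc3b had 25.7 CPM per kb in the knockout and 34.7 in WT, and Gabarapl2 had 16.6 in the knockout and 21.9 in WT.

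**Figure D3:**
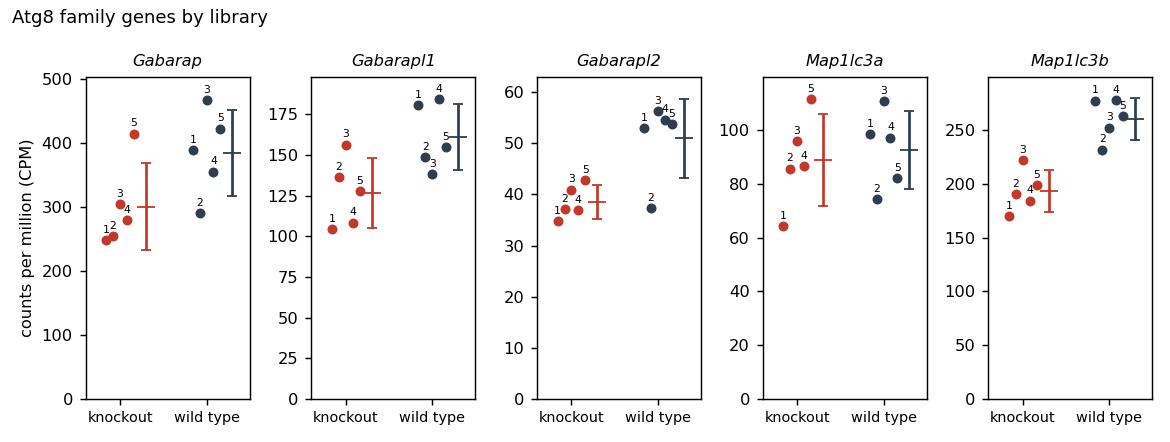
CPM of the 5 Atg8 genes in each library, with knockout points left of WT points and the group mean with SD. The knockout points of Map1lc3b (170.4 to 223 CPM) all lie below the WT points (232 to 278 CPM), and in the other 4 genes the groups overlap.

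The conjugation enzymes also had lower means in the knockout. All 9 had a log2 fold change below 0, with Atg3 and Atg4c turning to 0.04 each under the length offset and Atg3, Atg4c and Atg4d crossing 0 when some single libraries were left out, and they ran from -0.34 to -0.02. Of all tested genes 51.6% were below 0. The median of the 9 was -0.19, and 3 of the 9 (Atg7, Atg12 and Atg5) had an unadjusted p under 0.05. All 3 were lower (33.3%, against 6.1% of all tested genes on the lower side). Atg12 is the ubiquitin-like protein that Atg7 and Atg10 join to Atg5, and the joined pair, held by Atg16l1, directs the lipidation of Atg8 proteins. Atg12 (chr18:46732417-46741579) had 56.1, 48.7, 56.6, 45.7 and 52.5 CPM in the knockout libraries, against 70.6, 57.6, 57.2, 73.0 and 66.1 CPM in the WT libraries. The lowest WT value stood just above the highest knockout value, so that the groups did not overlap (log2 fold change -0.32 with an SE of 0.11, adjusted p = 0.312 by edgeR).

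Atg7 (chr6:114643097-114860614), the enzyme that activates both Atg12 and the Atg8 proteins, had 31.3, 32.0, 37.8, 34.1 and 46.1 CPM in the knockout libraries, against 51.3, 42.9, 41.6, 45.2 and 48.7 CPM in the WT libraries. Knockout library 5 lay among the WT libraries and the other 4 knockout libraries lay below all of them (log2 fold change -0.34 with an SE of 0.12, adjusted p = 0.343 by edgeR). Atg5, the partner of Atg12, had 24.7, 24.6, 29.2, 29.0 and 35.6 CPM in the knockout libraries, against 36.7, 28.7, 35.9, 34.0 and 38.6 CPM in the WT libraries. Knockout library 5 lay among the WT libraries and WT library 2 among the knockout libraries (log2 fold change -0.28 with an SE of 0.13, adjusted p = 0.374 by edgeR). The other 6 conjugation genes did not reach an unadjusted p of 0.05 by edgeR. Atg16l1 averaged 38.9 ± 4.18 CPM in the knockout and 44.3 ± 2.67 CPM in WT (SD, n = 5 each), a log2 fold change of -0.19. Atg10, the enzyme that transfers Atg12, averaged 6.75 ± 1.08 CPM in the knockout and 8.37 ± 1.72 CPM in WT, a log2 fold change of -0.31. Atg3, which passes Atg8 proteins to the lipid, averaged 56.4 ± 7.33 CPM in the knockout and 57.5 ± 5.37 CPM in WT, with a 95% interval of the log2 fold change of -0.28 to 0.22. The proteases Atg4b, Atg4c and Atg4d, which trim Atg8 proteins before conjugation and free them again afterwards, had log2 fold changes of -0.13, -0.02 and -0.12. Atg4b and Atg4d each overlap another tested gene on the opposite strand, so their counts are less certain.

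The libraries within a genotype were not alike for these 14 genes. The mean centred log2 CPM of the 9 conjugation genes was -0.17 to -0.11 in knockout libraries 1 to 4 and 0.10 in knockout library 5, against 0.06 to 0.18 in 4 WT libraries and -0.04 in WT library 2. For the 5 Atg8 genes it was -0.42 to -0.00 in knockout libraries 1 to 4 and 0.05 in knockout library 5, against 0.17 to 0.26 in 4 WT libraries and -0.12 in WT library 2. In both sets of genes knockout library 5 and WT library 2 stood nearest to the other genotype.

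The regions upstream of 4 of these genes are shown because Tfeb and its relatives bind an E-box, CACGTG, and its extended form TCACGTGA in promoters of autophagy and lysosome genes. Map1lc3b and Gabarapl2 are shown as the Atg8 genes of smallest p, Atg5 as a conjugation gene with an E-box, and Atg3 as the only one of the 33 genes with a window to hold the extended form. Each run gives, from RefSeq, the 250 bases before a transcript start on the plus strand of GRCm38.p6, in lower case, with capitals marking each CACGTG or TCACGTGA. The runs lie at chr8:121590188-121590437 for Map1lc3b, chr8:111940453-111940702 for Gabarapl2, chr10:44268089-44268338 for Atg5 and chr16:45158579-45158828 for Atg3. For Map1lc3b and Atg3 the run extends past the gene start in the deposited counts.
Map1lc3b: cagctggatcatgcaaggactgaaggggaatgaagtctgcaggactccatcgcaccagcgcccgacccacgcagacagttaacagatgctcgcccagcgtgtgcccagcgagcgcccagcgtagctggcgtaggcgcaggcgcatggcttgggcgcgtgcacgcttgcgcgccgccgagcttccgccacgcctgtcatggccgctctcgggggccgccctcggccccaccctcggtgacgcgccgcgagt
Gabarapl2: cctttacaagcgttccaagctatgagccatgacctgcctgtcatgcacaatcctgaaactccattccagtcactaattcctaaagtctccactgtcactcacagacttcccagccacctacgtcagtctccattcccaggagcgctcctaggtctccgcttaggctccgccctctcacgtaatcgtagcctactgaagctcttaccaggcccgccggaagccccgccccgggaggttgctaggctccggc
Atg5: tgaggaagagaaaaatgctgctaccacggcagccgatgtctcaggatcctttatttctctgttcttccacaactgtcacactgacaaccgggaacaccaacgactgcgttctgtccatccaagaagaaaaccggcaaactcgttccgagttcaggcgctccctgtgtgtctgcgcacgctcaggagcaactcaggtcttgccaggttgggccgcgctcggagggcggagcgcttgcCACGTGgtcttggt
Atg3: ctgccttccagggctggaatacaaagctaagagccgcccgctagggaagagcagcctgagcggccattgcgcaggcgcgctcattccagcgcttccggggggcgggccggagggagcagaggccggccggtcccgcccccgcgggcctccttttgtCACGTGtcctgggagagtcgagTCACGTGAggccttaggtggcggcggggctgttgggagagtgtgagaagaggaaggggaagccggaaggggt

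Of the 40 genes, 33 had a RefSeq window, which spans 250 bases before to 50 after the RefSeq transcript start, and both strands were searched. CACGTG was present for 4 of them (12.1%), namely Atg14, Atg3, Atg5 and Atg7, against 8.09% of all 27025 genes with a window. The windows of Atg7 (chr6:114670846-114671145) and Atg14 (chr14:47568385-47568684) lie inside the gene as placed in the deposited counts. For these 2 genes the CACGTG is therefore not at the deposited gene start. TCACGTGA, which contains CACGTG, was present for Atg3 (3.03%, against 1.12% of all genes). The core of the antioxidant response element, TGACNNNGC, was present for 6 (18.2%, against 14% of all genes), among them Map1lc3b at 5 bases after its RefSeq start. The Atf4 element core TGATGNAA was present for 0, against 4.51% of all genes, and the Foxo site GTAAACA for 0, against 4.05%. The windows of Map1lc3b and Gabarapl2 held no CACGTG. Of the 4 genes with CACGTG in a window, Atg14 had a log2 fold change of -0.13 and Atg3 one of -0.03. Atg5 had -0.28 and Atg7 -0.34. The part of these sites in the differences was not tested.

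Genes of the initiation kinase complex had means on both sides of WT. Of 5, 3 were above and 2 below, with a median log2 fold change of 0.14, and 0 had an unadjusted p under 0.05. With the length offset 2 were above and 3 below 0, the median was -0.04 and Rb1cc1 turned to -0.05. Ulk1, the kinase that nutrient-sensing pathways switch on or off, had 58.9, 62.2, 60.2, 61.9 and 33.6 CPM in the knockout libraries, against 51.8, 68.1, 38.6, 51.9 and 39.8 CPM in the WT libraries. Knockout libraries 1 to 4 lay within a narrow band and library 5 lay below every other library of either genotype (log2 fold change 0.14 with an SE of 0.20, adjusted p = 0.739 by edgeR). Ulk2, its close relative, averaged 61.6 ± 10.2 CPM in the knockout and 52.5 ± 6.63 CPM in WT (log2 fold change 0.23). Rb1cc1, the scaffold of the complex also called Fip200, averaged 96.9 ± 16.7 CPM in the knockout and 84.5 ± 14.3 CPM in WT (log2 fold change 0.20), and it overlaps a gene on the opposite strand by 5428 bases. Atg13, the adaptor of the complex, averaged 44.5 ± 5.87 CPM in the knockout and 45.8 ± 3.65 CPM in WT (log2 fold change -0.04). Atg101, which binds Atg13, averaged 22.3 ± 5.81 CPM in the knockout and 28.1 ± 6.06 CPM in WT, with a log2 fold change of -0.34 and a 95% interval of -0.76 to 0.09.

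The lipid kinase complex makes the phosphatidylinositol 3-phosphate that marks the growing membrane, and its 5 genes had small differences. The median log2 fold change was -0.05, with 2 above and 3 below 0, and the lowest edgeR adjusted p was 0.493. With the length offset 0 were above and 5 below 0 and the median was -0.15, with Uvrag at -0.05 and Pik3r4 at -0.15. Becn1, the core subunit, had 82.6, 84.1, 78.2, 72.5 and 72.0 CPM in the knockout libraries, against 81.0, 76.6, 73.7, 81.8 and 89.0 CPM in the WT libraries. The ranges overlapped over much of their span, and the 95% interval of the log2 fold change was -0.25 to 0.15. Pik3c3, the catalytic subunit also called Vps34, averaged 23.9 ± 1.66 CPM in the knockout and 26.5 ± 1.73 CPM in WT (log2 fold change -0.15). Its regulatory partner Pik3r4 averaged 35.3 ± 3.95 CPM in the knockout and 35.0 ± 5.34 CPM in WT (log2 fold change 0.01). Atg14 and Uvrag, alternative subunits that steer the kinase to autophagosomes or to later compartments, had log2 fold changes of -0.13 and 0.11.

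Among the 7 genes of membrane supply and expansion, Wipi1 and Wdr45 differed in opposite directions, each at an unadjusted p under 0.05 (28.6%, against 13.3% of all tested genes). Of the 7, 4 were above and 3 below 0 with a median of 0.08, and with the length offset 3 were above and 4 below with a median of -0.04. Wipi1, a protein that binds the lipid mark of the growing membrane, was the only one of the 40 genes on the higher side at that level. It lies at chr11:109573331-109611967. It had 128, 124, 130.3, 108 and 92.2 CPM in the knockout libraries, against 90.8, 110.1, 90.6, 92.1 and 80.3 CPM in the WT libraries. WT library 2 exceeded knockout libraries 4 and 5, and otherwise every knockout library was above every WT library (log2 fold change 0.33 with an SE of 0.12, adjusted p = 0.343 by edgeR). Wdr45 (chrX:7714333-7728206), a relative of Wipi1 also called Wipi4, had 7.26, 10.6, 9.44, 10.7 and 14.6 CPM in the knockout libraries, against 16.7, 13.5, 16.6, 14.3 and 18.2 CPM in the WT libraries. Knockout library 5 lay within the WT range and the other 4 lay below it (log2 fold change -0.59 with an SE of 0.18, adjusted p = 0.276 by edgeR). Without knockout library 5 the log2 fold change of Wdr45 was -0.74 and edgeR called it at an adjusted p of 0.0497, where 1.39% of all tested genes were called. Over the 21 alternatives its adjusted p ran from 0.0497 to 0.602.

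Atg9a, the lipid scramblase on the vesicles that seed the membrane, had the highest log2 fold change of the 40 and the widest interval. It had 33.2, 32.8, 28.4, 28.9 and 11.4 CPM in the knockout libraries, against 16.8, 29.2, 12.8, 21.5 and 16.1 CPM in the WT libraries. Knockout library 5 was the lowest of all 10 libraries while the other 4 knockout libraries lay near or above the highest WT library (log2 fold change 0.48 with an SE of 0.29, adjusted p = 0.461 by edgeR). Without knockout library 5 its log2 fold change was 0.67 (edgeR adjusted p = 0.0770, and 0.0770 to 0.721 over the 21 alternatives). Atg2b, a lipid transfer protein, averaged 40.3 ± 7.45 CPM in the knockout and 35.1 ± 4.75 CPM in WT (log2 fold change 0.20), and its partner in the family, Atg2a, averaged 42.0 ± 7.44 CPM in the knockout and 44.99 ± 7.83 CPM in WT (log2 fold change -0.10). Wipi2, which recruits Atg16l1 to the membrane, averaged 91.4 ± 3.90 CPM in the knockout and 101 ± 6.47 CPM in WT (log2 fold change -0.15). Vmp1, a scramblase of the endoplasmic reticulum, averaged 205 ± 18.7 CPM in the knockout and 194 ± 20.2 CPM in WT (log2 fold change 0.08). Atg9a and Atg2b overlap genes on the opposite strand and Vmp1 one on the same strand, which leaves their counts less certain.

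Ratios of related genes within a library do not depend on its depth. Of 12 such ratios, 4 had an unadjusted exact two-sided permutation p under 0.05, and only these 4 are given here. They were chosen after their values were seen, and the Benjamini-Hochberg adjusted permutation p of each was 0.0714. The count ratio of Atg2a to Atg2b was 1.12, 1.06, 0.845, 1.11 and 1.12 in the knockout libraries, against 1.20, 1.34, 1.18, 1.30 and 1.38 in the WT libraries. Every knockout library was below every WT library, a log2 difference of -0.29. The counted length of Atg2b is 13456 bases and that of Atg2a 7693 bases, and with the length offset their log2 fold changes were -0.04 and -0.22. The log2 ratio of Map1lc3b to Map1lc3a differed by -0.36, that of Wipi1 to Wipi2 by 0.47 and that of Wdr45 to Wipi1 by -0.94, with overlapping groups in each.

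The cargo receptors had means on both sides of WT. Of 5 genes, 2 had a mean above WT and 3 below, with a median log2 fold change of -0.19 and 0 at an unadjusted p under 0.05. Sqstm1, the receptor p62 that carries ubiquitinated proteins into autophagosomes and is itself a target of Tfeb and Nrf2, had the highest level per kilobase of the receptors (157 CPM per kb in the knockout and 181 CPM per kb in WT). It had 448, 589.7, 735, 426 and 435 CPM in the knockout libraries, against 707, 549, 493, 626 and 658 CPM in the WT libraries. The knockout libraries held both the highest and the lowest value (log2 fold change -0.20 with an SE of 0.18, adjusted p = 0.593 by edgeR). Tax1bp1, a receptor for aggregates, averaged 133 ± 8.82 CPM in the knockout and 152 ± 10.9 CPM in WT (log2 fold change -0.19, edgeR adjusted p = 0.385). Nbr1, which works with Sqstm1, averaged 112 ± 24.8 CPM in the knockout and 101 ± 25.5 CPM in WT (log2 fold change 0.15). Optn, a receptor for damaged mitochondria and bacteria, averaged 15.9 ± 2.501 CPM in the knockout and 18.3 ± 2.13 CPM in WT (log2 fold change -0.20), and Calcoco1, a receptor for endoplasmic reticulum, averaged 44.3 ± 10.5 CPM in the knockout and 42.1 ± 10.0 CPM in WT (log2 fold change 0.07).

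Epg5 tethers autophagosomes to late endosomes and lysosomes. It had 39.7, 39.3, 41.4, 32.7 and 19.6 CPM in the knockout libraries, against 28.1, 36.3, 18.7, 25.3 and 23.6 CPM in the WT libraries. Knockout libraries 1 to 3 lay above all WT libraries, and knockout library 5 lay below all WT libraries but library 3 (log2 fold change 0.39 with an SE of 0.22, adjusted p = 0.442 by edgeR).

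The transcription factors all had lower means in the knockout, without passing the test. Tfeb had 10.3, 10.8, 10.5, 14.5 and 13.9 CPM in the knockout libraries, against 12.7, 13.7, 13.1, 15.2 and 14.05 CPM in the WT libraries. Knockout libraries 1 to 3 lay below all WT libraries and knockout libraries 4 and 5 lay among them (log2 fold change -0.20 with an SE of 0.14, adjusted p = 0.508 by edgeR). Tfe3, the most abundant of the 3 per kilobase (8.67 CPM per kb in the knockout and 9.38 CPM per kb in WT), had 65.2, 80.0, 75.5, 91.8 and 88.9 CPM in the knockout libraries, against 87.2, 93.3, 82.8, 80.6 and 90.4 CPM in the WT libraries. The ranges overlapped, with a log2 fold change of -0.11 (95% interval -0.35 to 0.12). Mitf had 12.9, 8.35, 11.6, 11.7 and 9.73 CPM in the knockout libraries, against 11.2, 17.001, 11.5, 9.63 and 17.3 CPM in the WT libraries. WT libraries 2 and 5 were above all others and the remaining libraries interleaved (log2 fold change -0.30 with an SE of 0.20, adjusted p = 0.495 by edgeR). Tfeb and Mitf were among the 3 genes of lowest level per kilobase of all 40, with 2.12 and 1.75 CPM per kb in the knockout and 2.43 and 2.15 CPM per kb in WT, together with Atg4d. These are levels of RNA, and the activity of the 3 factors depends on phosphorylation and location, which were not measured.

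Genes of neighbouring pathways were read out from lists drawn up from general knowledge, with earlier results of these data known. Their shares beside those of all tested genes are therefore descriptions only. The lysosomal genes known as targets of the Tfeb family had the lowest median of these lists. Of 26 such genes, 24 had a mean below WT and 2 above, with a median log2 fold change of -0.37, and 14 had an unadjusted p under 0.05, all on the lower side (6.1% of all tested genes were). By edgeR 0 of the 26 were called after adjustment, and DESeq2 called 2, where it called 1.32% of all genes. Atp6ap1, an accessory subunit of the V-ATPase, which acidifies the lysosome, had 231, 243, 265, 261 and 269.9 CPM in the knockout libraries, against 335, 309, 321, 316 and 370.0 CPM in the WT libraries. Every knockout library was below every WT library (log2 fold change -0.38 with an SE of 0.10, adjusted p = 0.234 by edgeR). Atp6v0d1 and Atp6v1h, subunits of the same V-ATPase, had log2 fold changes of -0.54 and -0.46, and Ctsf, a lysosomal cysteine protease, one of -0.37 (edgeR adjusted p = 0.234, 0.234 and 0.258). Leukocytes are rich in lysosomes. Of the 12 leukocyte markers, 10 had a log2 fold change below 0, against 51.6% of all tested genes. By edgeR 0 of the 12 had an unadjusted p under 0.05. The leukocyte marker score, their mean centred log2 CPM, averaged -0.04 (SD 0.41) in the knockout and 0.04 (SD 0.78) in WT. With this score as a covariate the median of the 26 was -0.33, with 24 below 0. Because the score differed little between the genotypes, this fit could move the median little. The summed CPM of the 12 markers, not used as a covariate, averaged 4553 (SD 1618) in the knockout and 6587 (SD 3585) in WT. WT library 5 had the highest sums of the markers and of the 26 genes (12165 and 17116 CPM), and WT library 4 the lowest (2519 and 10711 CPM). Knockout library 5 had the highest of its group (6625 and 12167 CPM), but the lowest fell in different knockout libraries. The part of leukocytes in these values was not tested beyond the fit with the score.

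Among 30 further autophagy genes, which include vacuole-sorting subunits, fusion proteins and receptors for organelles, 21 were below 0 and 9 above, with a median of -0.13. At an unadjusted p under 0.05 there was 1 (3.33%, against 13.3% of all tested genes), Vps11, a subunit of the complexes that tether membranes to lysosomes, and it had 44.5, 44.8, 51.0, 49.8 and 48.5 CPM in the knockout libraries, against 59.6, 58.8, 54.9, 59.7 and 62.7 CPM in the WT libraries. Every knockout library was below every WT library (log2 fold change -0.31 with an SE of 0.09, adjusted p = 0.254 by edgeR). DESeq2 called 1 of the 30 (1.32% of all genes) and edgeR 0.

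The upstream nutrient and energy signalling genes, 34 in number, had log2 fold changes on both sides, with 16 above and 18 below 0, a median of -0.03, and 7 at an unadjusted p under 0.05 (20.6%, against 13.3% of all tested genes). Of the 7, 3 were higher (8.82%, against 7.19%) and 4 lower (11.8%, against 6.1%). Ddit4, an inhibitor of the mTORC1 kinase that holds autophagy back, had 72.8, 106, 113, 76.8 and 65.8 CPM in the knockout libraries, against 53.0, 48.9, 69.2, 41.2 and 43.1 CPM in the WT libraries. WT library 3 exceeded the lowest knockout library (log2 fold change 0.77 with an SE of 0.19, adjusted p = 0.231 by edgeR). Prkab2, a regulatory subunit of the energy sensor AMPK, had 90.3, 63.7, 48.3, 47.8 and 45.4 CPM in the knockout libraries, against 34.5, 41.7, 43.5, 44.3 and 31.1 CPM in the WT libraries, with no overlap (log2 fold change 0.60 with an SE of 0.20, adjusted p = 0.305 by edgeR). Akt1s1, a subunit of mTORC1 also called Pras40, had 109, 128, 138, 125 and 134 CPM in the knockout libraries, against 177, 143, 155, 174 and 149 CPM in the WT libraries, again with no overlap (log2 fold change -0.34 with an SE of 0.10, adjusted p = 0.284 by edgeR). Lamtor3, part of the scaffold that holds mTORC1 at the lysosome, averaged 52.3 ± 5.14 CPM in the knockout and 62.8 ± 4.47 CPM in WT (log2 fold change -0.26). DESeq2 called 1 of the 34 (1.32% of all genes) and edgeR 0. The kinase gene Mtor itself averaged 49.2 ± 12.6 CPM in the knockout and 38.5 ± 10.00 CPM in WT (log2 fold change 0.36, edgeR adjusted p = 0.475).

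Among 14 Nrf2 targets, genes of the antioxidant response in which Sqstm1 takes part, 13 were below 0 and 1 above, with a median of -0.19, and 3 had an unadjusted p under 0.05, all lower (21.4%, against 6.1% of all tested genes on the lower side and 13.3% in all). With the length offset 11 were below 0 and 3 above. Hmox1, which breaks down heme, had 441, 643, 787, 749 and 1161 CPM in the knockout libraries, against 1835, 1388, 949, 1274 and 1992 CPM in the WT libraries. Only WT library 3 lay below a knockout library, library 5 (log2 fold change -0.98 with an SE of 0.26, adjusted p = 0.241 by edgeR). Prdx1, a peroxide-removing enzyme, averaged 663 ± 282 CPM in the knockout and 1116 ± 379 CPM in WT (log2 fold change -0.75), and Gclm, a subunit of the enzyme that starts glutathione synthesis, averaged 85.0 ± 8.93 CPM in the knockout and 105 ± 17.2 CPM in WT (log2 fold change -0.31). By edgeR 0 of the 14 were called and by DESeq2 1 (1.32% of all genes).

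**Figure D4:**
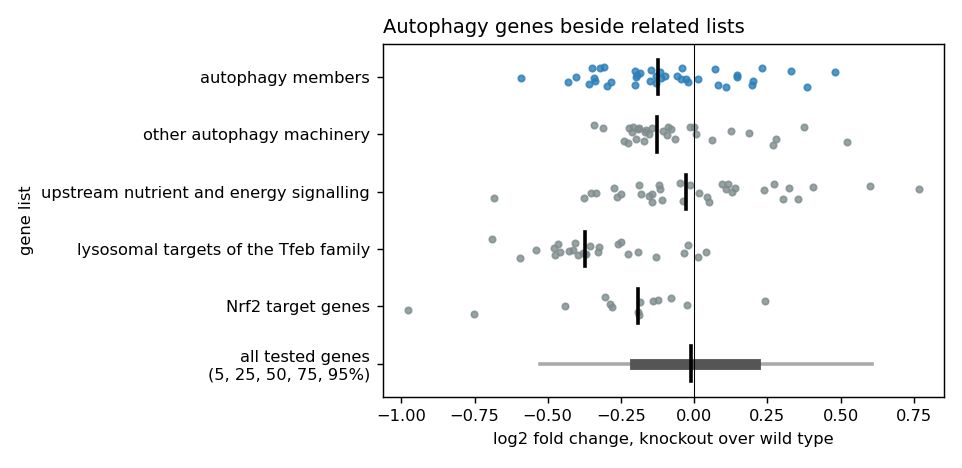
Log2 fold changes (knockout over WT) of the genes of each list, 1 point per gene with the list's median as a line, for the autophagy genes and the 4 neighbouring lists, with a bar for the 5, 25, 50, 75 and 95% points of all tested genes. The lysosomal targets have the lowest median of these lists, -0.37, against -0.12 for the 40 autophagy genes and -0.01 for all tested genes.

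Gene length moved with these values. In each library the slope of centred log2 CPM on log2 gene length over all tested genes was taken. It was 0.14, 0.08, 0.10, 0.06 and -0.16 in knockout libraries 1 to 5, against -0.06, 0.09, -0.15, -0.00 and -0.09 in WT libraries 1 to 5. Knockout library 5 and WT library 3 had the lowest slopes of their groups, and the mean was 0.04 in the knockout and -0.04 in WT (exact two-sided permutation p = 0.230). The 20 autophagy genes of greater length (5762 to 14690 bases) had 9 log2 fold changes above and 11 below 0 with a median of -0.07. The 20 of lesser length (1181 to 5731 bases) had 3 above and 17 below 0 with a median of -0.20. Of the 20 longer genes, 12 (60%) had their lowest knockout value in knockout library 5, against 34.3% of all tested genes. In WT, 13 (65%) had theirs in WT library 3, against 26.2% of all tested genes.

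With the length trend of each library removed as an offset, the median of the 40 was -0.15 with 29 below 0, and 8 had an unadjusted p under 0.05 (13.6% of all tested genes did). Map1lc3b, whose deposited gene length is 7517 bases, most of its span on the chromosome, then had a log2 fold change of -0.54. The offset depends on the deposited lengths. Whether these match the lengths of the RNAs in the cells was not tested. Gabarap, Gabarapl1 and Gabarapl2, of 1844 to 2325 bases, had -0.21, -0.21 and -0.27, and Atg12 had -0.21. Map1lc3a turned to 0.08 and Atg3 and Atg4c to 0.04 each, and Pik3r4 turned to -0.15, Rb1cc1 and Uvrag to -0.05 each and Atg2b to -0.04, while Wipi1 had 0.33 and Wdr45 -0.54. With the offset and without knockout library 5, edgeR called Map1lc3b (-0.61) and Atg7 (-0.59), both at an adjusted p of 0.0481, where 1.08% of all tested genes were called. For Atg7 the adjusted p ran from 0.0481 to 0.604 over the 21 alternatives. Without knockout library 5 and with no offset, 17 of the 40 had an unadjusted p under 0.05, 12 of them lower and 5 higher, where 14.7% of all tested genes were lower and 14.7% higher. The part of library quality in these values was not tested beyond these fits.

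**Figure D5:**
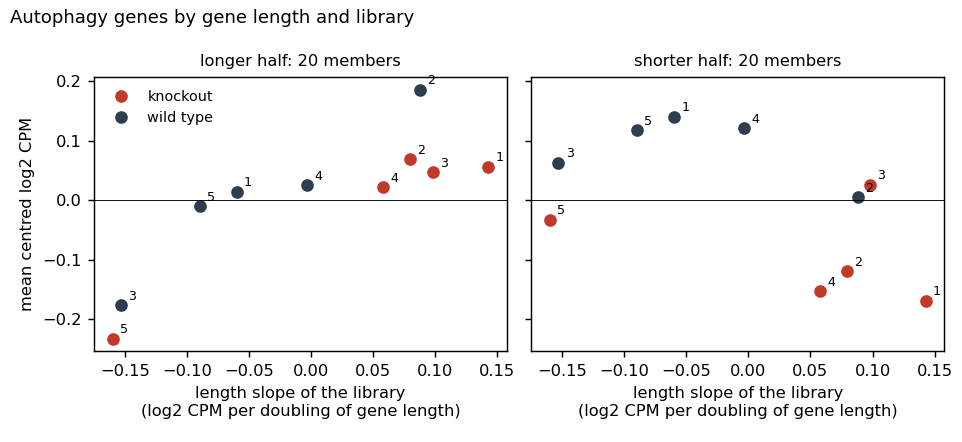
Length slope of each library against the mean centred log2 CPM of the longer and of the shorter autophagy genes, with knockout and WT libraries marked. Knockout library 5 has the lowest slope (-0.16) and the lowest mean for the longer genes (-0.23), and knockout libraries lie mostly below WT libraries for the shorter genes (-0.17 to 0.03 in the knockout and 0.00 to 0.14 in WT).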

How the data were processed

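Raw read counts per gene for 5 Mrc2 knockout and 5 wild-type libraries were used as deposited, and the mm10 build, STAR 2.5, HTSeq 0.6.1 and DESeq2 2 are listed in the submitters' processing notes without their roles. No source used here gives the annotation, read length or counting strand. Coordinates and gene lengths of genes are those in the deposited table, and 0 lines named no gene. Total counts were 19603933 to 29944615 per library, molecular identifiers are not mentioned, and floors cover counting error only. Every pair of libraries differed by more than counting noise (chi-square at least 19.2 per degree of freedom).

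Groups came from the genotype label and numbers from the titles. The 40 genes and the other lists were chosen with earlier results of these data known. Low counts were filtered with filterByExpr, which kept 14360 of 28582 genes with a count. Knockout was compared with WT by the quasi-likelihood test of edgeR (4.0.16, under R 4.3.3) after TMM scaling, with Benjamini-Hochberg adjustment over all tested genes and a threshold of 0.05. The biological coefficient of variation was 26.2% with 3.70 prior degrees of freedom. The SE was derived from the F statistic as |log2 fold change| over root F, and 95% intervals use the t distribution with residual plus prior degrees of freedom. CPM used TMM-scaled totals, and log2 CPM a prior count of 2. A mean centred log2 CPM averages genes after subtracting each gene's mean over the 10 libraries. The length offset was a lowess curve of span 0.3 per library. The code was tested on simulated counts.

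The genes named were Mrc2, those at an unadjusted p under 0.05, a set of central genes, those of extreme level or change in each role, and up to 4 of smallest p in each other list. Mtor and the remaining autophagy genes were added after their values were seen. Alternatives were RLE and upper-quartile scaling, no filter, a filter of 1 CPM in 5 libraries, DESeq2 1.42.0, voom of limma 3.58.1, a replicate block, the length offset and each library left out. Chosen after the data were seen were a leukocyte marker covariate, the offset without knockout library 5, and the 8 libraries other than knockout 5 and WT 3. Promoter windows came from RefSeq on GRCm38.p6.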

Additional observations from a re-analysis of the deposited data

Results flagged for a closer look

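A library was looked for that stood apart from the other 4 of its group by the Dixon ratio (above 0.71) in 124 groups of values, and 15 were found; chance gives about 1 in 20 groups. Of single genes, Ulk1 was at 33.6 CPM in knockout library 5 and at 58.9 to 62.2 CPM in the other knockout libraries. Atg9a was at 11.4 CPM in knockout library 5 and at 28.4 to 33.2 CPM in the others. Atg2b was at 27.4 CPM there and at 41.0 to 45.5 CPM in the others. Pik3r4 was at 28.4 CPM there and at 36.0 to 37.9 CPM in the others, and Atg4b at 65.4 CPM there and at 49.1 to 51.5 CPM in the others. Gabarapl2 was at 37.3 CPM in WT library 2 and at 52.9 to 56.4 CPM in the other WT libraries, and Wipi2 was at 90.2 CPM in WT library 3 and at 102 to 106 CPM in the others.

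The remaining flags were on summary values, all as mean centred log2 CPM unless a slope. In knockout library 5 the length slope was -0.16 (0.06 to 0.14 in the other knockout libraries), the membrane supply genes were at -0.26 (0.04 to 0.14), the conjugation enzymes at 0.10 (-0.17 to -0.11) and the 20 longer autophagy genes at -0.23 (0.02 to 0.07). In knockout library 1 the epithelial markers were at -1.20 (-0.08 to 0.28). In WT library 3 the 40 autophagy genes were at -0.057 (0.054 to 0.095 in the other WT libraries) and the lipid kinase genes at -0.19 (0.04 to 0.14). In WT library 2 the Atg8 genes were at -0.12 (0.17 to 0.26).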

How the results depend on the processing

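The median log2 fold change of the 40 autophagy genes was -0.12 and ran from -0.17 to -0.11 over 21 alternatives (-0.15 to -0.11 with 1 library left out). Of the 40, 29 kept 1 direction under every alternative, and 804 of 840 comparisons kept direction and side of the threshold. The number called was 0 by edgeR and 1 by DESeq2, 0 to 1 with 1 library left out and 2 with the length offset without knockout library 5. Over all genes the number called was 2, against 202 by DESeq2, 1 by voom, 0 with the replicate block, 1 with the length offset, 157 with the offset and no knockout library 5, 10 in the 8 libraries, and 1 to 203 with 1 library left out, 203 being without knockout library 5. The cause was not tested. Directions reversed with the length offset for Map1lc3a (0.084, and 0.11 without knockout library 5), Rb1cc1 (-0.054 and -0.065), Uvrag (-0.047 and -0.040), Atg2b (-0.038 and -0.014), Atg4c (0.038 and 0.11), Atg3 (0.044 and 0.078) and Pik3r4 (-0.15 and -0.16), for Atg13 (0.014) with the offset without that library only, and for Pik3r4 with upper-quartile scaling (-0.0074). With 1 library left out Map1lc3a ran from -0.16 to 0.032, Atg4c from -0.094 to 0.028, Atg4d from -0.22 to 0.0067, Atg3 from -0.11 to 0.021, Atg13 from -0.11 to 0.0076, Atg2a from -0.17 to 0.0013, Pik3r4 from -0.051 to 0.078 and Calcoco1 from -0.032 to 0.20.

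Replicate numbers were not shown to pair the libraries. Same-numbered libraries had correlations of -0.24 to 0.38, over 0.1 for 2 of 5, and 1 of 5 knockout libraries matched its own number best. With the replicate block in edgeR the log2 fold change of Mrc2 was -1.78 (adjusted p = 0.0542), 0 of all tested genes were called and 1913 had an unadjusted p under 0.05. The 95% intervals of the 40 genes reached 0.19 to 0.63 on either side of the estimate.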

Other observations

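A group of 10 receptors and other genes for autophagy of organelles or other cargo was outside the 40 genes. Of the 10, 7 were below 0 and 3 above (Bnip3, Bnip3l and Ncoa4), where 51.6% of all tested genes were below 0. In the edgeR fit 0 of the 10 had an unadjusted p under 0.05, against 13.3% of all tested genes. Bnip3, a mitochondrial receptor that hypoxia induces, had 155 ± 45.7 CPM in the knockout and 127 ± 29.3 CPM in WT, log2 fold change 0.28 (SD, n = 5 each). Its relative Bnip3l had 134 ± 22.6 CPM in the knockout and 129 ± 8.77 CPM in WT, log2 fold change 0.06. Fkbp8, another mitochondrial receptor, had 222 ± 57.8 CPM in the knockout and 281 ± 45.02 CPM in WT, log2 fold change -0.34. Pink1, the kinase that flags damaged mitochondria, had 56.2 ± 3.78 CPM in the knockout and 62.1 ± 5.23 CPM in WT, log2 fold change -0.14, and Fundc1 had 24.8 ± 2.43 CPM in the knockout and 27.9 ± 1.14 CPM in WT, log2 fold change -0.17. Of the receptors for endoplasmic reticulum, Rtn3 had 227 ± 26.5 CPM in the knockout and 265 ± 21.0 CPM in WT, log2 fold change -0.22, Sec62 had 183 ± 19.5 CPM in the knockout and 205 ± 13.5 CPM in WT, log2 fold change -0.16 and Retreg1 had 23.4 ± 1.51 CPM in the knockout and 25.2 ± 10.1 CPM in WT, log2 fold change -0.11. Ncoa4, which carries ferritin to lysosomes, had 56.1 ± 19.5 CPM in the knockout and 46.5 ± 15.4 CPM in WT, log2 fold change 0.27, and Tollip had 93.7 ± 10.3 CPM in the knockout and 98.0 ± 7.02 CPM in WT, log2 fold change -0.06. These genes were chosen as a group from the list of further autophagy genes after their values were seen.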
